A study of Mus musculus with 18 samples.

Results

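The collagen genes of the mouse were followed through single-cell RNA-seq libraries of the postnatal heart. They were taken as every gene column whose symbol is Col, a number, the letter a and a number, and 44 of 35843 Ensembl genes met this. They comprised 11 fibrillar genes, 8 of the basement membrane and associated types (types 4, 15 and 18), 6 of beaded filaments (type 6), 3 of network types (types 8 and 10), 9 fibril-associated genes, 1 anchoring fibril gene (type 7), 4 transmembrane genes and 2 others (types 26 and 28). Each of the 44 had at least 100 unique molecular identifiers (UMIs) over all wells. Per the labels, all mice were of the Myh6/Esr1-Tomato strain, in which a tamoxifen-dependent Cre under the cardiomyocyte promoter Myh6 marks cardiomyocytes (CMs) with a red reporter. The study's methods give tamoxifen to the dams in the first days after birth for this cross. They name no mouse line in the knockdown section, but set C57BL/6 as the default for mice. On the knockdown mice the labels and this default therefore differ. Hearts without a knockdown were taken at P4, P7, P14 and P28, counted as 2, 2, 2 and 6 animals. P28 animals 3 and 4 are samples whose reports name no animal, and they may be 1 mouse. In the knockdown experiment, lentivirus carrying a hairpin against Jun (shJun) or a non-targeting one (shNT) was injected into the left ventricle at P1 and cells were taken at P28, with 2 animals for each hairpin. Which cells had taken up virus was not analysed here. The study's methods describe chopping and kit digestion for P1 and P7 ventricles, and perfusion for older hearts, those of the knockdown included. P4 and P14 are not named there. Age and digestion therefore cannot be told apart between the early and the late stages. Cells were separated into CM and non-CM (NCM) fractions and imaged in nanowells. For P1 and P7 the study's methods describe separation by adherence in culture, and for perfused hearts by centrifugation. This step too cannot be told apart from age.

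Collagens are trimers of alpha chains wound into a triple helix. Fibrillar types 1, 3 and 5 form the fibres that bear tension in the myocardium, and the heart's fibroblasts (FBs) are known as their main source. Type 4 builds the sheet-like basement membrane that surrounds CMs and lines endothelial cells (ECs) and pericytes, type 6 forms beaded filaments next to it, and fibril-associated types such as type 14 sit on the surface of fibrils and influence their diameter. The number of UMIs counts captured poly(A) molecules, so levels between genes are compared per molecule and are not divided by transcript length. Levels are given as CPM (UMIs of a gene scaled to a common total of nuclear-gene UMIs) in the summed cells of 1 class in 1 animal, and changes as log2 fold changes ± standard error (SE) from edgeR.

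The genes at the head of the results differ in the sequence just upstream of their start. The 150 bases before the RefSeq transcript start (GRCm38.p6) are shown for Col3a1, the most abundant collagen of FBs, for Col5a3 and Col8a1, which rose with age, and for Col11a1 and Col24a1, which fell. Capitals mark matches on either strand to the TATA box (TATAAA), the CCAAT box (letters as in its name) and the GC box that Sp1 binds (GGGCGG).
Col3a1 (chr1:45311388-45311537, plus strand): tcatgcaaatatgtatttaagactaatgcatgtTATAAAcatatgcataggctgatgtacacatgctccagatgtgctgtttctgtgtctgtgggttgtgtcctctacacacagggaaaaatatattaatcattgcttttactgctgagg
Col5a3 (chr9:20815068-20815217, minus strand): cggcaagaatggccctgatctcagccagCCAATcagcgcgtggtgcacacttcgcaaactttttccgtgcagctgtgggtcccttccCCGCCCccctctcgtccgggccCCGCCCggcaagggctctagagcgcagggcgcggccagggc
Col8a1 (chr16:57754738-57754887, minus strand): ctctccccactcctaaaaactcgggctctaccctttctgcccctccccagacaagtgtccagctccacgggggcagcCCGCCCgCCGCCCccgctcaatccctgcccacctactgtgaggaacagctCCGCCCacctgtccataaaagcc
Col11a1 (chr3:114030390-114030539, plus strand): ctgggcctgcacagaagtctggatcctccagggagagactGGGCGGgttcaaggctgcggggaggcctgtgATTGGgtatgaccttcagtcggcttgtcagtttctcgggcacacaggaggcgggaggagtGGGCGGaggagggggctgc
Col24a1 (chr3:145292322-145292471, plus strand): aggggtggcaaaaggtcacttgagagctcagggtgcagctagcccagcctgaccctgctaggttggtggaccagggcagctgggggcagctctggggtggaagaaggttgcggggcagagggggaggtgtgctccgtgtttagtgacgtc
Col3a1 was the only one of these 5 with a TATAAA match. Upstream windows of 250 bases were at hand for 35 of the 44 genes, in 38 windows. GGGCGG occurred in 57.9% of the collagen windows against 32.7% of 32851 windows of all genes, CCAAT in 34.2% against 33.8%, and TATAAA in 13.2% against 12.4%. The AP-1 consensus TGANTCA, to which Jun binds with its partners, was found in 1 window, that of Col6a1, or 2.63% against 6.75% of all windows. No factor's binding was measured here. In the GENCODE vM21 annotation, 3 pairs of type 4 genes lie head to head: the starts of Col4a1 and Col4a2 are 21 bases apart on chromosome 8, those of Col4a3 and Col4a4 72 bases apart on chromosome 1, and those of Col4a5 and Col4a6 1309 bases apart on chromosome X. Counting by strand is not stated in the sources used here, so reads at overlapping ends could not be assigned by strand.

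The files held 18 chips, each with 11161784 to 133264535 UMIs, and 19822 of 23475 cells passed the filters. Collagens took 2299093 of the 609830348 UMIs of these cells. Cells were grouped without using any collagen gene and named from marker lists, as FB-like, EC-like, CM-like, mural-like and macrophage-like cells, shortened here to FBs, ECs, CMs, mural cells and macrophages. Of 5051 well barcodes, 4890 recurred in other samples, since the chips share a fixed set of barcodes. Sums of at least 20 cells could be made for 11 animals in FBs, 12 in ECs, 10 in CMs and 4 in mural cells. The P28 FBs came from a cluster of 959 cells with a median of 3063 UMIs and another of 729 cells with a median of 10139. The P4 and P7 samples each held 2 animals, spread over both chips of the stage. Xist was at 223 and 230 CPM in the P4 animals and at 1.01 and 0.57 CPM in the P7 animals, so sex and stage cannot be told apart between them. P14 and P28 animals included both high and low values. Among the knockdown animals, Xist was at 186 CPM in shJun 1 and 0.248 CPM in shJun 2. It was at 3.78 CPM in shNT 1 and 1.81 CPM in shNT 2, so sex was not balanced between the hairpins.

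FBs held the largest part of the collagen message. They contributed 49.1% of all collagen UMIs in passing cells with 3890 cells, ECs 20.2% with 3968 cells, CMs 11.6% with 6015 cells, mural cells 5.35% with 749 cells and macrophages 3.49% with 1510 cells. The summed collagen level was 12168 CPM in FBs, 5930 in mural cells, 4481 in ECs, 2078 in macrophages and 968 CPM in CMs. These class values are descriptions without a test, and wells that received no cell also held collagen: 90 negative control wells contained 125 collagen UMIs among 51790 UMIs, with at least 1 in 43 wells. How these UMIs came into wells without a cell, and their part in the low levels of other classes, was not tested.

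In FBs, Col3a1 led with a mean of 4225 ± 1232 CPM (SD, n = 11 animals). Its product, type 3 collagen, forms fine fibrils together with type 1. The type 1 chains followed, with Col1a2 at 1540 ± 554 CPM and Col1a1 at 1143 ± 395 CPM. Col4a1, a basement membrane chain, stood between them at 1496 ± 179 CPM and varied least of these 4, from 1191 to 1760 CPM. The ranges of Col1a2, Col4a1 and Col1a1 overlapped. A middle tier held Col6a2 at 533 CPM, Col5a1 at 512, Col14a1 at 488, Col5a2 at 450, Col6a1 at 386, Col4a2 at 344, Col15a1 at 305, Col6a3 at 224, Col8a1 at 210 and Col5a3 at 149 CPM. The other 30 collagens were each under 100 CPM on average.

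**Figure D1:**
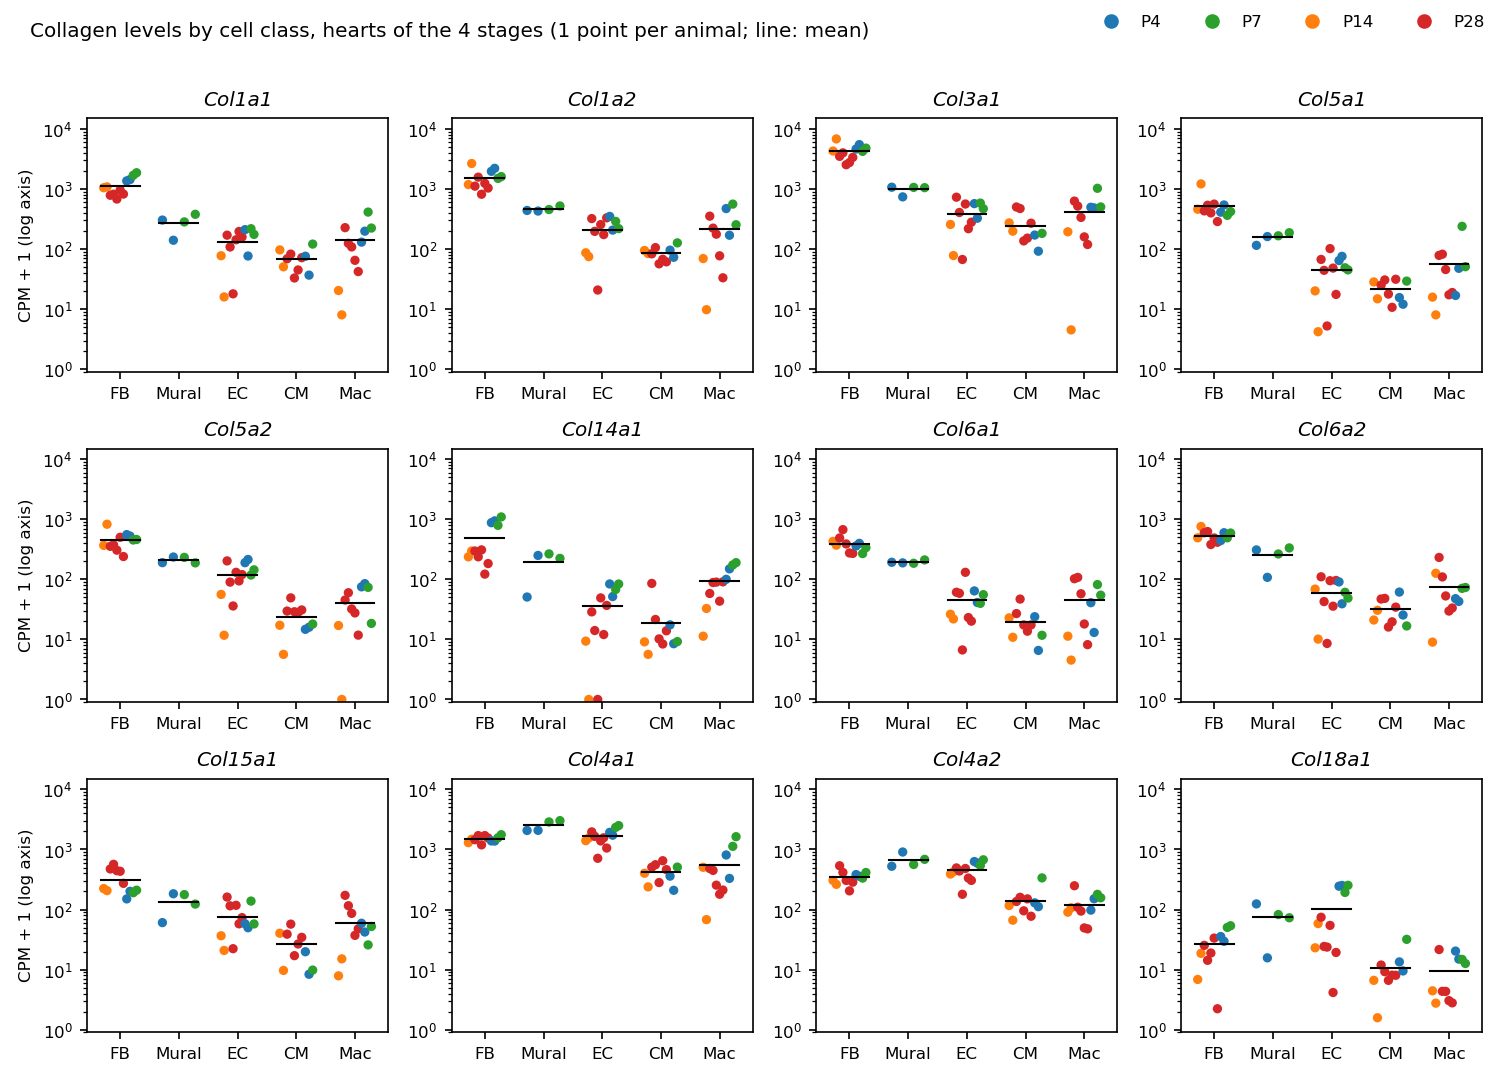
Levels of 12 collagens in FBs, mural cells, ECs, CMs and macrophages of the hearts of the 4 stages. Each point is 1 animal, coloured by stage, the y axis is CPM plus 1 on a log scale and the line is the mean. Fibrillar and type 6 genes stand highest in FBs, while Col4a1 is at 1191 to 1760 CPM in FBs and 2071 to 3017 CPM in mural cells.

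The classes differed in which collagens led. In the 9 animals with sums for FBs, ECs and CMs, 14 genes were highest in FBs in all 9: Col1a1, Col1a2, Col3a1, Col5a1, Col5a2, Col5a3, Col6a1, Col6a2, Col6a3, Col8a1, Col14a1, Col15a1, Col16a1 and Col27a1. Col4a1 was highest in ECs in 6 of 9 animals and in FBs in the other 3, and its partner chain Col4a2 was highest in ECs in 8 of 9. In ECs, Col4a1 averaged 1646 CPM and Col4a2 456 CPM, followed by Col3a1 at 379, Col1a2 at 210, Col1a1 at 130, Col5a2 at 116 and Col18a1 at 101 CPM. Col18a1 encodes the type 18 chain of vascular basement membranes, from which endostatin is cut. Mural cells, which wrap vessels, had the highest mean of Col4a1, 2509 CPM, with Col4a2 at 669 and Col3a1 at 983 CPM.

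In CMs, Col4a1 had the highest mean of the collagens. Col4a1 averaged 416 CPM, Col3a1 245 CPM and Col4a2 137 CPM in CMs, and every other collagen was under 100 CPM on average. As a share of the level in ECs of the same animal, Col4a1 in CMs was 12.1 to 43.6%, with a median of 27.2% over 10 animals, and Col4a2 was 15.4 to 62.2%, with a median of 28.6%. The endothelial markers Cdh5, Fabp4 and Pecam1 in CMs had medians of 12.6%, 14.6% and 11.6% of their EC levels. The share of Col4a1 was above that of each of these 3 markers in 10 of 10 animals. FB and mural cells also express Col4a1, and their part in the CM level was not tested.

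**Figure D2:**
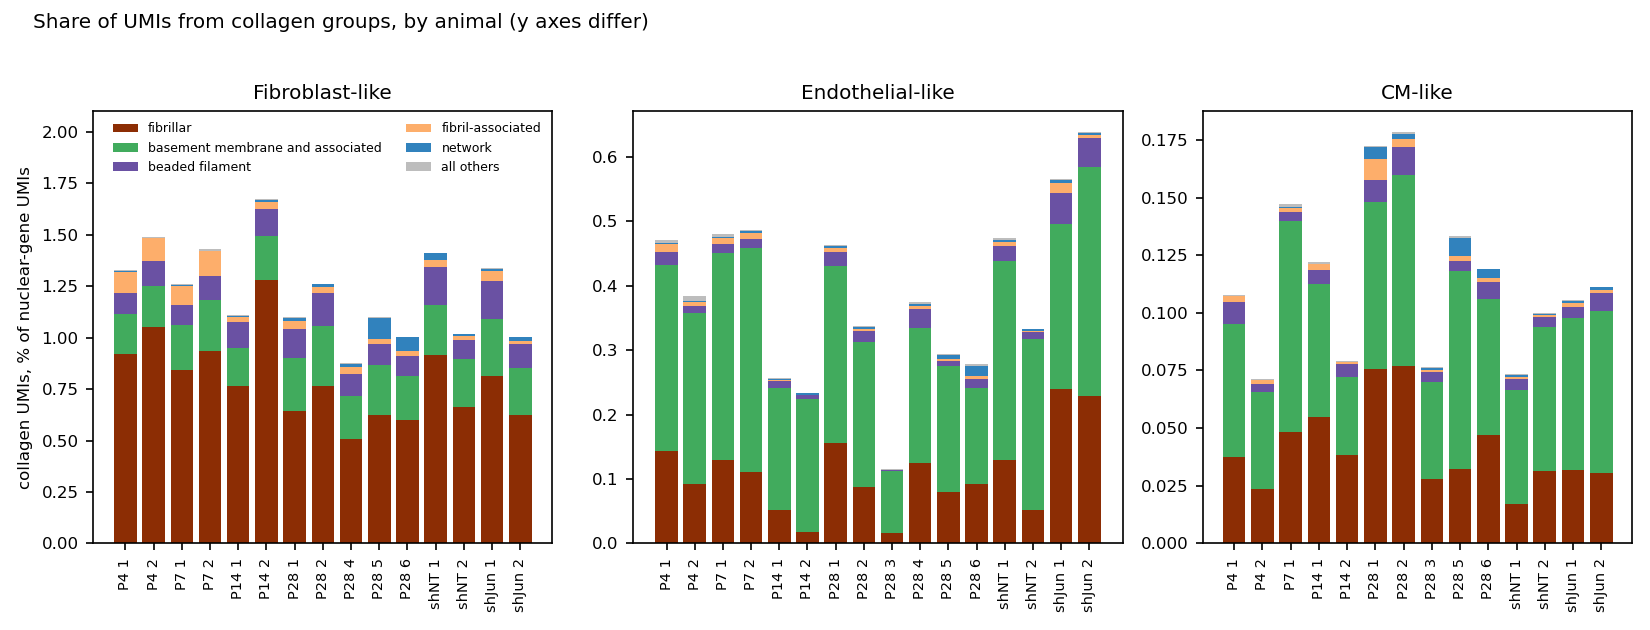
Collagen UMIs as a percentage of all nuclear-gene UMIs in FBs, ECs and CMs, 1 stacked bar for each animal and 1 colour for each collagen group. The y axes differ between the panels. Fibrillar genes make up 56.8 to 76.5% of each FB bar, and basement membrane genes are the largest part of each EC bar, at 45.3 to 88.3%.

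Together the 44 genes took 1.33 to 1.49% of FB UMIs at P4, 1.26 to 1.43% at P7, 1.11 to 1.67% at P14 and 0.876 to 1.26% at P28. All 5 P28 animals were below both P4 animals, with a P28 median of 1.10%. Within the collagen UMIs of FBs, fibrillar genes held 69.3 to 70.5% at P4 and 56.8 to 60.8% at P28, and basement membrane genes 13.3 to 14.9% at P4 and 21.6 to 23.7% at P28. The fibril-associated part was 7.43 to 7.81% at P4, 7.33 to 8.22% at P7, 1.94 to 2.54% at P14 and 2.11 to 4.24% at P28. The drop lay between P7 and P14, where the digestion may also have changed. In ECs the whole family took 0.383 to 0.470% of UMIs at P4 and 0.116 to 0.463% at P28, and in CMs 0.0714 to 0.108% at P4 and 0.0765 to 0.179% at P28, so the stages overlapped in both classes. These parts are descriptions without a test.

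The comparison of P28 with P4 asks how far the collagen message of each class differs between the newborn and the grown heart. Among 36 collagens tested in FBs, 3 rose and 4 fell at P28, at an adjusted p under 0.05 in edgeR. Over all genes 2.29% were called, 1.05% higher and 1.24% lower. The median log2 difference was -0.04 over the 36 collagens and 0.06 over all genes tested. The 8 collagens that were not tested had too few UMIs in these sums. At an unadjusted p under 0.05 stood 18 of the 36 collagens and 2117 of all 15266 genes. DESeq2 called 7 collagens higher and 4 lower among 1046 genes, and its scaling moved the median of all genes by 0.118.

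The genes that fell were Col14a1 and 3 chains of low level. Col14a1 was at 876 and 939 CPM in the P4 FBs, 791 and 1092 CPM at P7, 236 and 295 CPM at P14 and 295, 236, 308, 121 and 182 CPM at P28. Every animal at P14 and P28 was below every animal at P4 and P7. The change was -1.92 ± 0.34 (log2, edgeR adjusted p = 0.00552). Col11a1, a chain of minor fibrils that nucleate thicker ones, was at 84.4 and 129 CPM at P4, 67.6 and 57.1 CPM at P7, and 0.768, 12.4, 2.18, 0 and 0 CPM at P28. One cell supplied 97% of the 12.4 CPM in P28 animal 2. The P28 values were all below those of P4 and P7, with a change of -5.02 ± 1.13 (edgeR adjusted p = 0.027). Col24a1, another fibrillar chain, was at 24.9 and 41.5 CPM at P4, 10.7 and 17.6 CPM at P7, 0 in both P14 animals and at most 0.830 CPM at P28. It fell by 5.89 ± 0.95 on the log2 scale (edgeR adjusted p = 0.00342). Col9a1, a fibril-associated chain best known from cartilage, was at 13.3 and 14.2 CPM at P4, of which single cells gave 70.7% and 56.0%, and at most 0.512 CPM at P28. Its change was -6.08 ± 1.19 (edgeR adjusted p = 0.0107).

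The genes that rose were Col5a3, Col8a1 and Col4a4. Col5a3, a type 5 chain of fine pericellular fibrils, was at 55.8 and 50.9 CPM at P4, 66.1 and 53.0 CPM at P7, 179 and 114 CPM at P14 and 202, 302, 256, 142 and 221 CPM at P28. Its values at P14 and P28 did not overlap with those at P4 and P7, and the change was 2.14 ± 0.47 (edgeR adjusted p = 0.0222). The other chains of type 5 did not follow: Col5a1 changed by -0.04 ± 0.35 and Col5a2 by -0.54 ± 0.34, neither past the threshold. Col8a1, a short-chain collagen that forms networks below endothelium, was at 30.7 and 26.6 CPM at P4, 46.2 and 38.1 CPM at P7, 19 and 83.5 CPM at P14 and 137, 117, 148, 1032 and 630 CPM at P28. The 2 highest belonged to P28 animals 5 and 6. The change was 3.99 ± 0.96 (edgeR adjusted p = 0.0394), and without these animals it was 2.20 (edgeR adjusted p = 0.0489). Col4a4, a type 4 chain of specialised basement membranes, was at 0.698 and 1.69 CPM at P4 and at 25.6, 42.7, 25.3, 6.14 and 19.7 CPM at P28. Its change was 4.35 ± 1.09 (edgeR adjusted p = 0.046). Of 17 alternatives, 9 lost this call, with adjusted p-values up to 0.653.

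**Figure D3:**
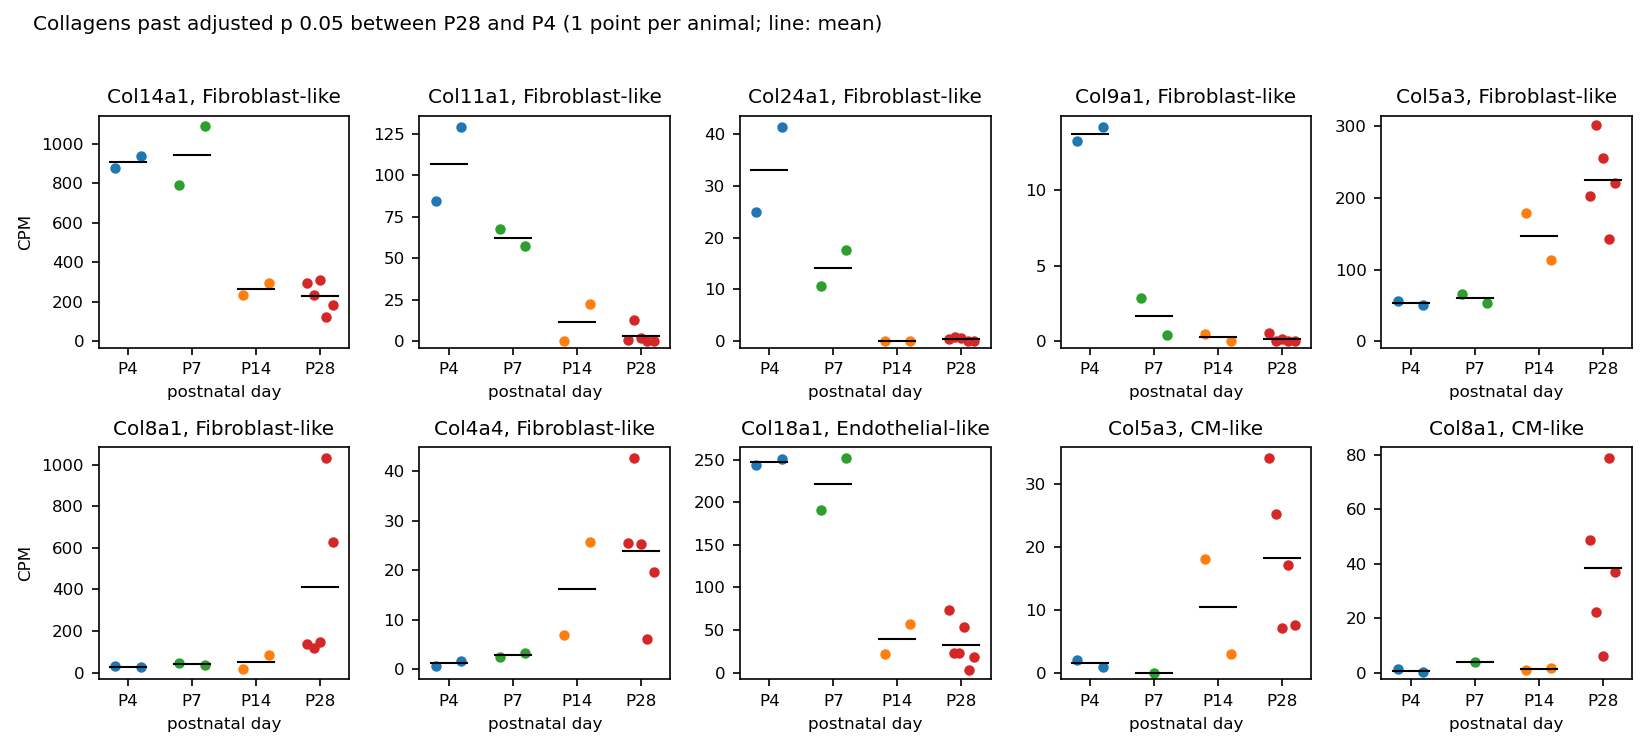
Each of the 10 gene and class combinations called between P28 and P4, as CPM per animal at P4, P7, P14 and P28. Points are animals, lines are means, and the y scale differs between panels. Col14a1 in FBs lies between 791 and 1092 CPM before P14 and between 121 and 308 CPM from P14 on.

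The abundant fibrillar chains were lower at P28 in level but did not pass the threshold. Col1a1 was at 1367 and 1438 CPM at P4, 1694 and 1867 CPM at P7, 1050 and 1085 CPM at P14 and 787, 819, 681, 960 and 824 CPM at P28. The stages did not overlap, with a P28 to P4 difference of -0.70 ± 0.27 (edgeR adjusted p = 0.234). The chips of 1 stage also differed: the same 2 P4 animals gave 1862 and 1820 CPM on chip 1 and 1131 and 1221 CPM on chip 2. Col1a2 was at 1971 and 2212 CPM at P4, 1503 and 1610 CPM at P7, 1187 and 2662 CPM at P14 and 818 to 1576 at P28, a difference of -0.79 ± 0.29 (edgeR adjusted p = 0.202). Col3a1 was at 4638 and 5492 CPM at P4 and 2542 to 4001 CPM at P28, a difference of -0.58 ± 0.25 (edgeR adjusted p = 0.289). As type 1 collagen is built from both chains, their ratio is of interest. Col1a1 per Col1a2 was 0.65 to 0.693 at P4, 1.13 to 1.16 at P7, 0.408 to 0.885 at P14 and 0.52 to 0.832 at P28, so that the P7 animals stood above those of the other stages.

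Col4a1, Col4a2, Col6a1 and Col6a2 of FBs differed by less than their SE between P4 and P28. Col4a1 was at 1385 and 1379 CPM at P4 and 1191 to 1700 CPM at P28 (0.21 ± 0.28, edgeR adjusted p = 0.825), and Col4a2 differed by -0.03 ± 0.37 (edgeR adjusted p = 0.985). Col15a1, which links basement membranes to fibrils, was at 149 and 200 CPM at P4, 190 and 209 CPM at P7, 222 and 205 CPM at P14 and 472, 565, 442, 432 and 272 CPM at P28. Its P28 values were all above those of the earlier stages, with a difference of 1.38 ± 0.37 that missed the threshold (edgeR adjusted p = 0.062). Col4a5 was at 17.3 and 13.1 CPM at P4, 34.4 and 47.9 CPM at P7 and 36.9 to 107 CPM at P28 (2.21 ± 0.59, edgeR adjusted p = 0.0608). It is X-linked, like Xist. Among type 6 chains, Col6a1 differed by 0.19 ± 0.37 and Col6a2 by 0.01 ± 0.31, neither past the threshold. Col6a3 was at 129 and 179 CPM at P4 and 234 to 333 CPM at P28 (0.93 ± 0.38, edgeR adjusted p = 0.269), and Col6a6 at 75.1 and 51.3 CPM at P4 and 0 to 18.5 CPM at P28 (-2.84 ± 0.85, edgeR adjusted p = 0.0982).

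**Figure D4:**
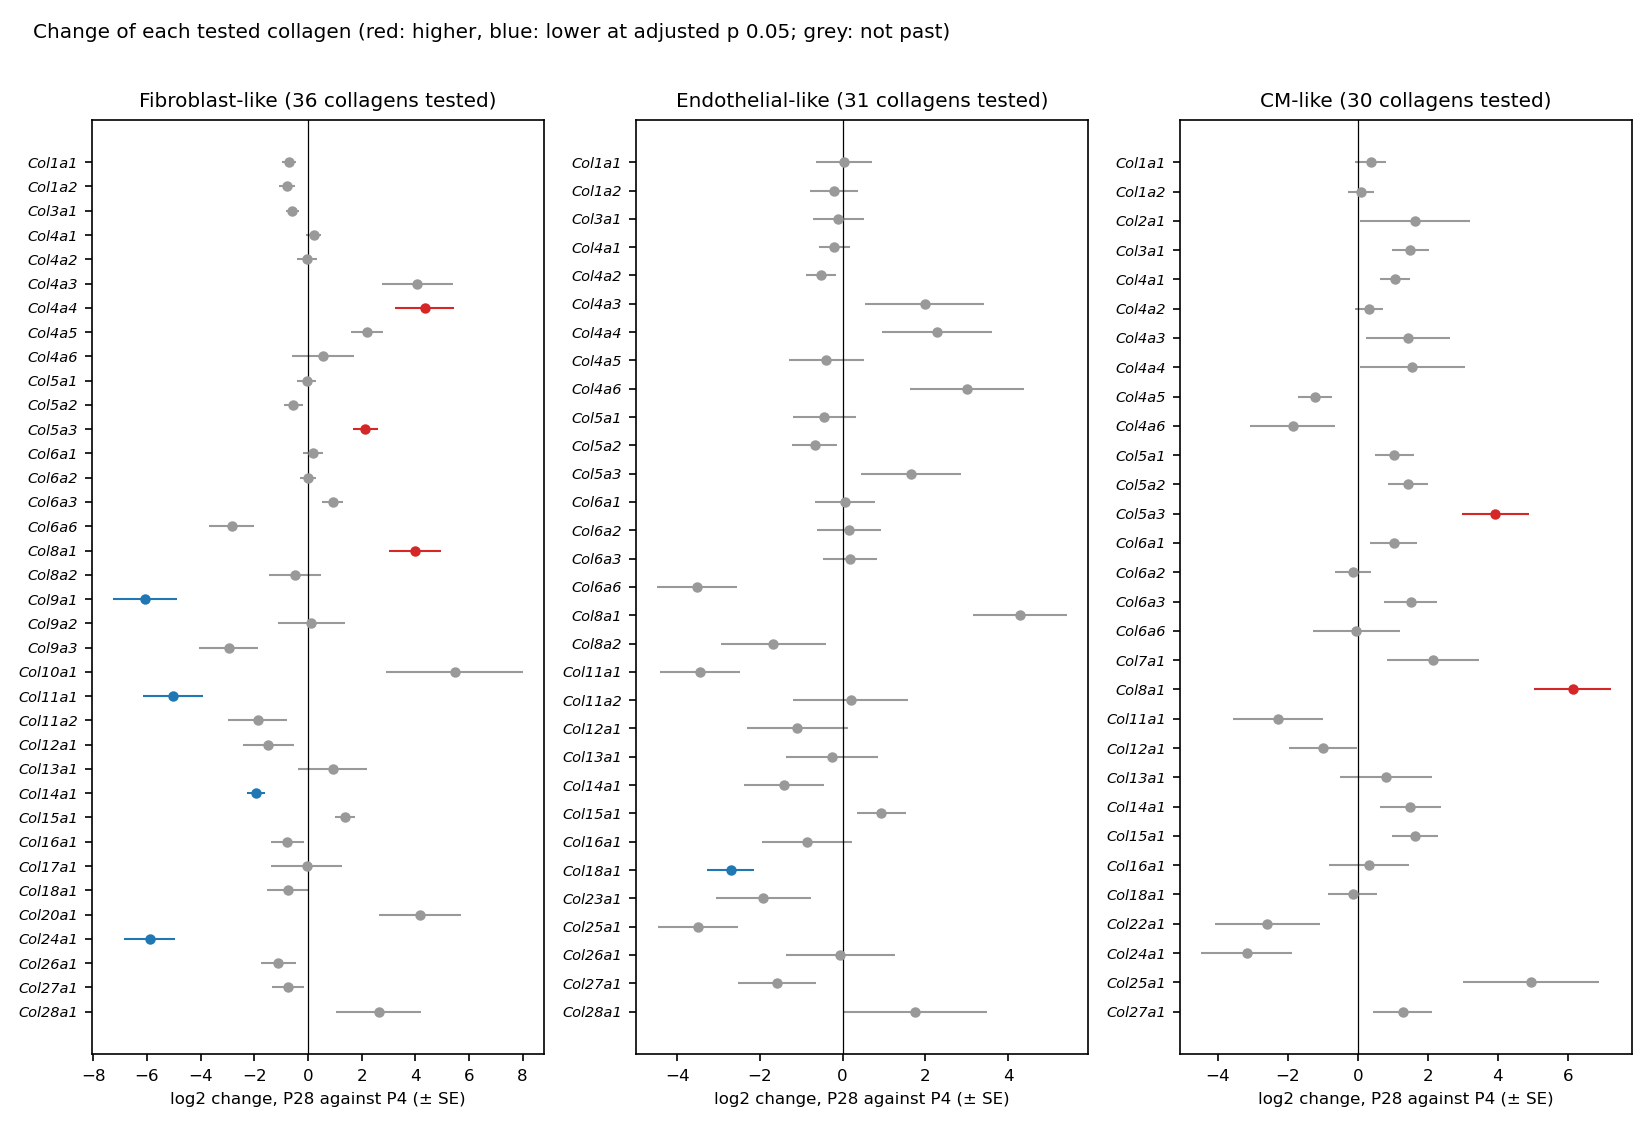
Log2 change from P4 to P28 with its SE for the 36 collagens tested in FBs, 31 in ECs and 30 in CMs. Red (higher) and blue (lower) points passed an adjusted p of 0.05 by edgeR, 7 in FBs, 1 in ECs and 2 in CMs, and grey points did not.

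These FB calls rest on 2 P4 animals: without P4 animal 1 the count was 1 and without P4 animal 2 it was 0, and without P28 animal 4 it was 4. Other marker lists moved with stage in the FB sums. The 7 erythroid markers found in the files summed to 372 to 454 CPM at P4 and 6499 to 106519 CPM at P28, the 8 CM markers to 10624 to 12165 CPM at P4 and 1292 to 3757 CPM at P28, the 8 macrophage markers to 18.1 to 28.5 CPM and 373 to 2133 CPM, and the 8 FB markers to 7570 to 8139 CPM and 13203 to 21084 CPM. No gene of these lists was at 0 in all FB sums of the stages. At P28 the lists of endothelial cells (168 to 4217 CPM), mural cells (340 to 1215), T cells (7.68 to 205), B cells (3.69 to 83.4), granulocytes (67.5 to 160), epicardium (11.4 to 137) and Schwann cells (72.8 to 163) were lower than the FB list. With haemoglobin genes left out the count of collagens stayed at 7. Leaving out all cells holding other markers kept 9.51% of all FBs, those of the knockdown included. A single P4 animal then kept enough FBs, so no count is given. The part of these cells or of free RNA in the calls was not tested.

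The steps between neighbouring stages gave no collagen past the threshold by edgeR in FBs. From P4 to P7 0 of 36 were called, against 0.0197% of all genes, with 2 collagens and 506 of 15266 genes at an unadjusted p under 0.05, and 0 collagens among 87 genes by DESeq2. From P7 to P14 0 of 36 were called, against 0.648% of all genes (0.406% higher and 0.242% lower), with 12 collagens and 2414 genes at an unadjusted p under 0.05, and 6 collagens among 922 genes by DESeq2. The median of all genes moved by -0.28 in that step, and by -0.16 in DESeq2. Between P14 and P28 0 of 36 were called, against 0.151% of all genes, with 11 collagens and 2501 genes at an unadjusted p under 0.05, and 4 collagens among 822 genes by DESeq2. Col3a1 had the smallest p of this last step, at 4294 and 6832 CPM at P14 against 2542 to 4001 CPM at P28 (-1.09 ± 0.24, edgeR adjusted p = 0.0824), while the median of all genes was at 0.36. Without P14 animal 1, 3 collagens were called in it. The P14 FB sums came from 105 and 30 cells.

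In ECs, Col18a1 was the collagen that fell between P4 and P28. It was at 244 and 251 CPM at P4, 191 and 252 CPM at P7, 22.1 and 57.4 CPM at P14 and 73.4, 23.3, 22.7, 53.5, 3.16 and 18.3 CPM at P28. Every animal at P14 and P28 was below every animal at P4 and P7, and the change was -2.70 ± 0.57 (edgeR adjusted p = 0.0316). This was 1 of 31 collagens tested, against 1.01% of all genes called and 0.711% called lower. DESeq2 called 5 collagens, 1 higher and 4 lower, among 690 genes. The call was lost without P4 animal 1, P4 animal 2, P28 animal 2 or P28 animal 6, each leaving 0 collagens, and 2 were called without P28 animal 3. The P28 animal 5 value is under the level that 3 UMIs give in that sum, 4.73 CPM.

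The main vascular chain was not past the threshold between these stages. Col4a1 in ECs was at 1924 and 1725 CPM at P4, 2329 and 2494 CPM at P7, 1399 and 1555 CPM at P14, and from 712 to 1959 CPM at P28 (-0.20 ± 0.38, edgeR adjusted p = 0.894). Col4a2 was at 628 and 591 CPM at P4 and 178 to 492 CPM at P28, all below P4, with a difference of -0.52 ± 0.36 (edgeR adjusted p = 0.616). Col8a1 was at 2.56 and 3.13 CPM at P4 and 3.78 to 156 CPM at P28 (4.29 ± 1.15, edgeR adjusted p = 0.102). Col3a1, Col1a1, Col1a2 and Col5a2 differed by -0.11 ± 0.62, 0.03 ± 0.68, -0.21 ± 0.59 and -0.68 ± 0.55, none past the threshold. The 8 FB markers summed to 450 to 778 CPM in ECs at P4 and 251 to 2968 CPM at P28.

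Whether the change with age differed between FBs and ECs was tested within animals, since both classes came from the same mice. No collagen of 38 passed, against 0% of all genes called by edgeR. An unadjusted p under 0.05 was reached by 3 collagens and by 686 of all 16755 genes, and DESeq2 called 0 collagens among 30 genes. Col4a5 had the smallest p, with an FB change larger by 3.37 ± 1.01 than the EC change (edgeR adjusted p = 1). For Col18a1 the difference was 1.88 ± 1.01 (edgeR adjusted p = 1), so its fall was not shown to be particular to ECs.

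In CMs, Col8a1 and Col5a3 rose between P4 and P28. Col8a1 was at 1.28 and 0.113 CPM at P4, each value from 1 cell, at 3.78 CPM in the P7 animal, at 1.12 and 1.74 CPM at P14 and at 48.7, 22.2, 5.98, 78.8 and 37.0 CPM at P28. All P28 animals were above all earlier ones, and the change was 6.14 ± 1.10 (edgeR adjusted p = 0.00391). Col5a3 was at 2.01 and 0.906 CPM at P4, 0 at P7, 18 and 2.89 CPM at P14 and 34.1, 25.2, 7.07, 17.1 and 7.63 CPM at P28, a change of 3.93 ± 0.97 (edgeR adjusted p = 0.0238). The P28 animals were all above P4 but overlapped with P14. These were 2 of 30 collagens tested, against 5.73% of all genes called, 3.13% higher and 2.60% lower. The median log2 difference was 1.04 over these collagens and 0.08 over all genes. Without P4 animal 1 the count was 1, and without P4 animal 2 it was 0. DESeq2 called 5 collagens among 1775 genes.

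The CM clusters differed in their leading genes between the stages. At P4, 202 of the CMs lay in a cluster led by Sln and Myl7, known from atrial CMs, and 105 in another, whereas neither gene was among the 10 leading genes of a P28 CM cluster. Without the P4 cluster led by Sln and Myl7 the sums held 47 and 58 cells, Col8a1 changed by 4.67 (edgeR adjusted p = 0.0189) and Col5a3 by 3.69 (edgeR adjusted p = 0.0474). The P28 CMs included a cluster of 111 cells led by Rgs1, Ccl4 and Cxcl2, known from immune cells, and another of 117 cells led by Ogn and Errfi1. Without these clusters Col8a1 changed by 5.03 (edgeR adjusted p = 0.0277), and the call of Col5a3 was lost (3.16, edgeR adjusted p = 0.0789).

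The same 2 genes were called higher in FBs, and FB markers moved with stage in the CM sums. The 8 FB markers summed to 194 to 414 CPM at P4 and 403 to 1591 CPM at P28 in CMs. As a percentage of the FB level in the same animal, Dcn in CMs was 0.959 to 2.14% at P4 and 2.17 to 16.3% at P28, Dpt 1.56 to 3.31% and 11.1 to 15.5%, Lum 0.654 to 1.74% and 2.17 to 7.67%, and Pdgfra 0.669 to 1.12% and 4.51 to 13.1% (2 animals at P4 and 4 at P28). Over the same stages Col5a3 in CMs was 1.78 to 3.60% and 3.44 to 16.8% of its FB level, and Col8a1 0.426 to 4.17% and 5.87 to 35.6%. The part of FB RNA in the CM changes was not tested.

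Among the more abundant collagens of CMs, none passed the threshold. Col4a1 was at 359 and 208 CPM at P4, 507 in the P7 animal, 401 and 237 at P14 and 505, 556, 280, 648 and 461 CPM at P28 (1.06 ± 0.42, edgeR adjusted p = 0.14). Col3a1 was at 170 and 91.3 CPM at P4 and 136 to 502 CPM at P28 (1.51 ± 0.53, edgeR adjusted p = 0.101), and Col4a2 differed by 0.31 ± 0.40 (edgeR adjusted p = 0.685). Col4a5 went the other way, from 53.8 and 73.6 CPM at P4 to 31.7, 32.9, 21.4, 18.9 and 7.63 CPM at P28, without overlap (-1.21 ± 0.49, edgeR adjusted p = 0.158).

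Mural cells were compared between P7 and P4 only. No collagen of 23 passed in edgeR, against 0.0264% of all genes. Unadjusted, 2 collagens and 1100 of all 11350 genes had a p below 0.05, and DESeq2 called 0 collagens among 179 genes. Col4a1 was at 2071 and 2077 CPM at P4 and 2870 and 3017 CPM at P7, a difference of 0.51 ± 0.19 (edgeR adjusted p = 0.484).

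Genes that act on collagen were taken as fixed lists of 31 for biosynthesis, 9 for receptors and 12 for turnover. In FBs between P28 and P4, 1 of 31 biosynthesis genes rose and 1 fell, and 0 of 9 receptors and 0 of 11 turnover genes tested passed edgeR's threshold. Over all genes 2.29% were called, 1.05% higher and 1.24% lower. Pcolce2, an enhancer of procollagen C-proteinase, rose by 4.01 ± 0.67 (edgeR adjusted p = 0.0036), and P4ha3, a subunit of prolyl 4-hydroxylase, fell by 5.11 ± 1.27 on the log2 scale (edgeR adjusted p = 0.045). Pcolce2 was also the gene that rose from P7 to P14, by 3.50 ± 0.69 (edgeR adjusted p = 0.0317). It was 1 of 31 biosynthesis genes tested in that step, against 0.406% of all genes called higher. In CMs between P28 and P4, 1 of 29 biosynthesis genes tested was higher and 1 lower, 1 of 8 receptors was higher and 1 of 10 turnover genes was higher, against 5.73% of all genes called by edgeR. Colgalt2, a collagen galactosyltransferase, changed by 5.44 ± 1.48 (edgeR adjusted p = 0.0372) and Fkbp10, a procollagen chaperone, by -1.89 ± 0.49 (edgeR adjusted p = 0.0296). The collagen receptor Lair1 of immune cells changed by 7.19 ± 1.94 (edgeR adjusted p = 0.0401), and the gelatinase Mmp2 by 2.91 ± 0.62 (edgeR adjusted p = 0.00999). The macrophage list in CMs stood at 12.2 to 14.3 CPM at P4 and 130 to 448 CPM at P28. In the other 8 comparisons no gene of the 3 lists passed.

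Over all passing cells of an animal, the P4 hearts held 7173 and 6453 CPM of collagen, the P7 hearts 7724 and 8693, the P14 hearts 2673 and 2661, and the P28 hearts 795 to 5530 CPM. At P4, FBs made up 32.8 and 32.9% of the cells, at P7 29.2 and 31.2%, at P14 8.85 and 5.94%, and at P28 0 to 48.9%. In such whole sums, fewer FBs and less collagen RNA per FB cannot be told apart, and the cell fractions loaded on the chips set the shares of cells.

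The knockdown arm asks whether collagens differ at P28 in hearts injected with shJun. The target was checked first. Jun in CMs had 29.5 and 31.0 CPM under shJun against 52.8 and 62.5 CPM under shNT, without overlap. In FBs it was at 190 and 80.2 CPM against 78.5 and 116 CPM, and in ECs at 68.7 and 144 CPM against 130 and 88.3 CPM, so the hairpins overlapped in both. In FBs and ECs the libraries labelled shJun thus did not show less Jun. Each shJun animal shared its 3 chips with 1 shNT animal.

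FBs of the shJun animals had no collagen past the threshold. Of 27 tested, edgeR called 0, against 0% of all genes. In simulated counts, this test recovered 0 of 50 planted changes of log2 size 4. No collagen had an unadjusted p below 0.05, against 525 of 13738 genes, and DESeq2 called 0 collagens among 65 genes. Col1a1 was at 1104 and 755 CPM in the libraries labelled shJun and 1087 and 648 CPM in shNT, a difference of 0.10 ± 0.52. Col3a1 was at 3911 and 2743 CPM against 4542 and 3252 CPM, a difference of -0.23 ± 0.54. Col4a1 was at 1594 and 1444 CPM against 1397 and 1445 CPM. For Col1a1 and Col3a1, the same chip set held the higher animal of both hairpins. Col6a1 was at 605 and 444 CPM against 343 and 322 CPM (0.65 ± 0.48), without overlap. Of the other collagens above 100 CPM in FBs, Col5a2 had the largest difference (-0.67 ± 0.50). NCM wells held 96.1 and 38.6% of the FBs of the shJun animals and 97.3 and 34.3% of those of the shNT animals. From these wells alone, Col1a1 was at 1116 and 1178 CPM against 1103 and 898 CPM.

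In ECs, none of 26 collagens passed between shJun and shNT (0% of all genes called by edgeR, and 0 collagens among 296 genes by DESeq2). Here too, edgeR recovered 0 of 50 planted changes of log2 size 4 in simulated counts. At an unadjusted p under 0.05 stood 6 collagens, each with the higher level in the libraries labelled shJun, against 1106 of all 14621 genes. Col6a3 was at 150 and 211 CPM in shJun and 58.0 and 37.8 CPM in shNT (1.94 ± 0.46, edgeR adjusted p = 0.636). Col5a1 was at 251 and 123 CPM against 60.5 and 20.5 CPM (2.35 ± 0.70, same adjusted p). Col1a2 was at 552 and 835 CPM against 349 and 106 CPM (1.67 ± 0.55), Col3a1 at 1111 and 833 CPM against 551 and 238 CPM (1.4 ± 0.49), and Col1a1 at 314 and 241 CPM against 154 and 77.7 CPM (1.35 ± 0.48). For these 5 genes and Col6a2 (1.81 ± 0.66) the hairpins did not overlap. They were picked by their p, and how many of all 14621 genes had no overlap was not counted. The median difference was 0.73 over the 26 collagens and 0.07 over all genes. Col4a1, the chain that ECs themselves express most, differed by 0.02 ± 0.35. The 8 FB markers summed to 4866 to 6369 CPM in the shJun ECs and 1648 to 3143 CPM in the shNT ECs. Dcn, one of them, was at 23.7 and 32.0% of its FB level in shJun against 14.7 and 6.08% in shNT. NCM wells held 96.8 and 94.0% of the ECs of the shJun animals and 96.7 and 27.5% of those of the shNT animals. From these wells alone, Col3a1 was at 1135 and 865 CPM in shJun against 554 and 344 CPM in shNT, Col6a3 at 152 and 225 CPM against 58.0 and 41 CPM, and Col1a1 at 320 and 256 CPM against 154 and 71.1 CPM, again without overlap. The part of FB RNA in these differences was not tested.

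**Figure D5:**
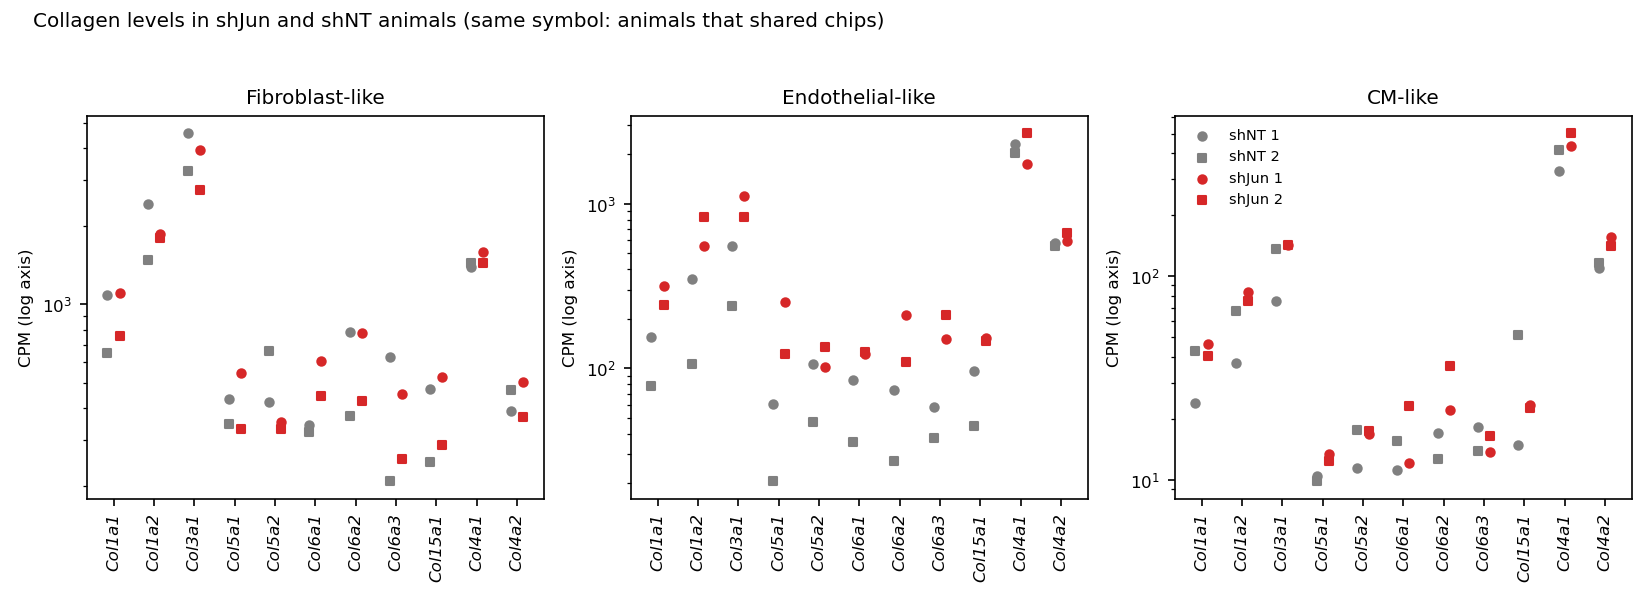
Levels of 11 collagens in FBs, ECs and CMs of the knockdown hearts at P28, as CPM on a log axis. Grey points are the 2 shNT animals and red points the 2 shJun animals, and the same symbol marks animals that shared chips. In ECs the hairpins separate for Col3a1, at 833 and 1111 CPM against 238 and 551 CPM, and in FBs they overlap for it.

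CMs, in which Jun was lower, also had no collagen past the threshold. Of 38 tested, edgeR called 0, against 0% of all genes. Unadjusted, 3 collagens and 640 of all 17495 genes had a p below 0.05, and DESeq2 called 0 collagens among 35 genes. Col4a1 was at 437 and 501 CPM in shJun and 327 and 416 CPM in shNT, a difference of 0.25 ± 0.21. Col4a2 was at 155 and 140 CPM against 110 and 116 CPM, a difference of 0.30 ± 0.17 (edgeR adjusted p = 1). Col3a1 was at 142 CPM in both shJun animals and at 75.4 and 136 CPM in shNT. Col6a2 had the largest level of the 3 genes at an unadjusted p under 0.05, at 22.1 and 36.2 CPM against 17 and 12.7 CPM (0.89 ± 0.34, edgeR adjusted p = 1). One cell held 37.8% of these UMIs in shJun animal 2, and in CM wells alone Col6a2 was at 22.2 and 22.5 CPM against 14.9 and 12.7 CPM. With 2 animals a hairpin, differences of this size were not past the threshold. In simulated counts, this test recovered 1 of 50 planted changes of log2 size 1 and 13 of 50 of size 2.

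The remaining members were rare. Col19a1 had the fewest UMIs of the family, 197 over all wells, followed by Col2a1 with 204, Col6a4 with 214, Col22a1 with 263, Col20a1 with 284 and Col10a1 with 286. Col2a1, the main chain of cartilage, had 1 or more UMIs in 157 cells and stayed under 1 CPM in every FB sum. Col10a1, a collagen of growth plate cartilage, was at 43.0 CPM in the FBs of P28 animal 6 and at most 3.51 CPM in those of every other animal. Of the transmembrane genes, Col13a1, Col17a1, Col23a1 and Col25a1 were at most 8.03, 3.33, 2.56 and 2.41 CPM in FBs. Col23a1 reached 45.9 CPM and Col25a1 13.4 CPM in the ECs of P4 animal 2. In mural cells of the stages, Col25a1 reached 58.0 CPM and Col23a1 20.4 CPM.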

How the data were processed

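Collagen genes and the lists of collagen-related and marker genes were chosen with earlier results of these data known. Per the labels and the study's methods, the authors captured poly(A) RNA of single cells in ICELL8 nanowells, trimmed reads with cutadapt, aligned them with STAR 2.5.2b to mm10, assigned them to genes with featureCounts (Subread 1.4.6-p1) and deposited UMI counts per gene and well, not normalized, with well reports that name the animal, fraction and hairpin. From these counts, cells with at least 500 genes and a log10 UMI total within 2 SD of a group mean were kept. The group was all cells of the stage, or all knockdown cells, and not the single sample. The 35 mitochondrial genes were left out. No doublet caller was run; wells had been imaged before capture. Cells were clustered within each stage and knockdown animal (Leiden clustering of a shared-neighbour graph, Python 3.11.15) without collagens and collagen-related genes. Clusters were named from marker lists for CMs, fibroblasts, endothelial, mural, T, B, epicardial and Schwann cells, macrophages, granulocytes and erythroid cells. The scoring details, and the rule that left clusters led by globin genes unnamed, were decided with the clusters in view. UMIs were summed by animal and class (at least 20 cells), and by chip where reports name no animal (P28 animals 3 and 4, which may be 1 mouse). The sums held 622942 to 69646391 UMIs. Intervals and limits from 3 UMIs cover counting error only.

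Differences were tested with edgeR 4.0.16 (R 4.3.3; quasi-likelihood, TMM scaling, filterByExpr) over all genes, with Benjamini-Hochberg adjustment and a threshold of 0.05. All stages of a class shared 1 fit, and the animal was a term in the comparison of classes. DESeq2 1.42.0, no filter, stricter or thinned cells, sums per chip, cells without other markers, each animal left out and a replicate block were the alternatives. Described singly were every collagen past the threshold and those at a mean of at least 100 CPM in the class, plus up to 6 collagen-related genes past the threshold per comparison. Some collagens outside this rule were described too, among them Col4a5 and Col6a6 in FBs, Col8a1 in ECs and Col4a5 in CMs. They are not a full list of the collagens below that level. Scripts were tested on simulated data. For shJun against shNT, 0 of 50 planted changes of log2 size 4 were recovered in FBs and in ECs, and 50 of 50 in CMs. This CM test recovered 13 of 50 at size 2 and 1 of 50 at size 1. At size 4 in FBs, 3 of 50 were recovered from P4 to P7 and 3 of 50 from P7 to P14. For FBs against ECs it was 11 of 50, and for mural cells 14 of 50. Between P28 and P4, 2 of 50 were recovered at size 2 in FBs, 3 of 50 in ECs and 5 of 50 in CMs. A gene not past the threshold in these comparisons therefore does not show absence of change. In the CMs of the knockdown this holds for the smaller sizes. Promoter windows came from RefSeq (GRCm38.p6) and gene positions from GENCODE vM21. The knockdown animals of the same number shared chips, but nothing in the labels ties them as pairs.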

Additional observations from a re-analysis of the deposited data

Results flagged for a closer look

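Of 33 groups of 4 to 10 values tested for a sample far from the others, 2 stood out, and chance gives about 1 in 20. Both were in the FBs of P28. Col11a1 was at 12.4 CPM in animal 2, the highest of 5, with a gap of 0.825 of the range and a group median of 0.768 CPM. Col9a1 was at 0.512 CPM in animal 1, the highest of 5, with a gap of 0.776 of the range and a median of 0. Both genes were called lower at P28.

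Collagen UMIs were also present outside the comparisons. The 90 negative control wells had 2414 CPM of collagen, from 125 UMIs, where 3 UMIs would give 57.9 CPM. The 2395 cells of no named class held 3227 CPM of collagen.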

How the results depend on the processing

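Counts below are of collagens past the threshold, by edgeR unless DESeq2 is named. In FBs from P4 to P28, 7 became 11 with DESeq2, 4 with at least 1000 genes per cell and 11 without P28 animals 5 and 6. With cells holding other markers left out, a single P4 animal kept enough FBs, so no count is given. In ECs from P4 to P28, 1 became 5 with DESeq2, 3 with no filter on low counts and 0 with at least 1000 genes per cell, with sums per chip or with cells holding other stromal or immune markers left out. In CMs from P4 to P28, 2 became 5 with DESeq2, 1 with at least 1000 genes per cell, 1 without the P28 clusters led by Rgs1 or Ogn and 0 with cells thinned to 5000 UMIs. In FBs from P7 to P14, 0 became 6 with DESeq2 and 2 with no filter. From P14 to P28 it became 4 with DESeq2, 4 with no filter and 1 without P28 animals 5 and 6. With no filter it became 3 in ECs and 2 in CMs for shJun against shNT. Leaving out each animal gave 0 to 8 for FBs and 0 to 2 for ECs and for CMs from P4 to P28, 0 to 3 for FBs from P14 to P28, 0 to 1 for CMs of the knockdown, with the 1 without shNT 1, and 0 elsewhere. With the replicate block on the animals that shared chips, the knockdown gave 0 collagens in FBs, ECs and CMs, as without it. The comparison of FBs with ECs gave 0 with no replicate block too. The cause of these shifts was not tested.

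None of the 10 called changes reversed in any alternative: 125 of their results kept the call and 47 lost it. Over all genes, DESeq2 called 1046 against 350 in FBs, 690 against 153 in ECs and 1775 against 872 in CMs from P4 to P28. Leaving out stromal or immune markers, haemoglobin genes, P28 animals 5 and 6, CM clusters, or knockdown wells of another fraction was chosen after seeing the data. Leaving out cells with any other markers was not run for FBs from P7 to P14, from P14 to P28 or in the knockdown, for ECs, for mural cells or for FBs against ECs.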
